A study of Mus musculus with 6 samples.

Results

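The extracellular proteases measured here, together with their inhibitors and the urokinase receptor, are the matrix metalloproteinases (Mmp), the membrane-bound and secreted disintegrin metalloproteinases (Adam, Adamts), the tissue inhibitors of metalloproteinases (Timp), the serpins, and urokinase (Plau) with its receptor (Plaur). They were taken by gene symbol from the annotation of the array's probes, leaving out the neuronal inhibitor Serpini1. That gave 76 of 10076 probes, standing for 75 of 8841 named genes. Each was read on 6 single-colour arrays of thioglycollate-elicited macrophages, the cells that a sterile irritant recruits, taken from female C57BL/6 mice aged 6 weeks.

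Each of the 6 groups had 1 array. The arrays without TSA were labelled No treatment, LPS, and GW3965 + LPS. Their partners with TSA were labelled TSA, TSA + LPS, and TSA + GW3965 + LPS. TSA, or trichostatin A, blocks histone deacetylases. LPS is the bacterial lipopolysaccharide that signals through Toll-like receptor 4, and GW3965 switches on the liver X receptors, the oxysterol-sensing nuclear receptors. GW3965 was given only together with LPS. Doses, times and the number of mice behind an array are not in the labels, which also do not say whether mice were pooled. With 1 array a group, a difference between a pair of arrays has no error of its own, so each p-value below rests on the spread that the 6 arrays share, which may be technical.

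As background, macrophages remodel tissue by releasing or displaying such proteases. Metalloproteinases cut collagens, elastin and other matrix proteins and are made as inactive precursors, and Timp proteins block their active sites. Adam proteases shed membrane proteins such as cytokines and growth factor precursors from the cell surface. Urokinase, held at the surface by Plaur, turns plasminogen into plasmin, and serpins trap serine proteases by a suicide mechanism; many clade B serpins act inside the cell.

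Macrophage markers were measured throughout: 9 or 10 of 10 stood at or above the array's median on every array. Neutrophil markers stood there for 2 to 4 of 10, and Mpo, the myeloperoxidase of neutrophil granules, was at the floor (each array's 25th percentile) on all 6 arrays. S100a8, at 22.0 to 78.8, and Ctsg, at 3.13 to 6.18, were above the median on every array. The T cell markers Cd3e and Cd8a were also at the floor on all 6, while Cd4 read 1.17 to 2.16 and Cd3d 0.692 to 1.65. B cell markers stood at or above the median for 3 or 4 of 4, mast cell and basophil markers for 3 or 4 of 7, and T and NK cell markers for 1 or 2 of 5. The fibroblast proteoglycan gene Dcn was measured on every array, at 5.21 with No treatment and 8.61 to 11.8 on the others.

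Most of these genes stood below the median of every array, and 15 of the 76 probes were at the floor on all 6 arrays. Of the 75 genes, 26 reached the median of an array on at least 1 array, or 34.7%, against 57.5% of all 8841 genes. These 26 were tested, and 18 of them stood at or above the median on all 6 arrays. The other 8 (Adam10, Adam17, Adamts10, Mmp13, Mmp19, Serpina3n, Serpinb8 and Serpini2) passed through some arrays only, so a member that passed because 1 group was high was bound to show a difference. By family, 4 of 15 Mmp genes passed, 6 of 21 Adam, 1 of 6 Adamts, 2 of 4 Timp, 1 of 2 plasminogen activator genes and 12 of 27 serpins.

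The 49 genes that did not reach a median include several that are known from macrophages or other leukocytes. Their highest reading was 0.939, where array medians were 0.981 to 0.987. Among metalloproteinases they were Mmp1a, Mmp2, Mmp3, Mmp7, Mmp9, Mmp10, Mmp11, Mmp16, Mmp17, Mmp23 and Mmp24. The probe of Mmp9, the gelatinase B of neutrophils and macrophages, read 0.0179 to 0.373 and was at the floor on 4 of 6 arrays. The probe of Plau, the urokinase gene itself, read 0.359 to 0.514 and never reached a median. The Adam genes below it were Adam1a, Adam2, Adam3, Adam5, Adam7, Adam9, Adam11, Adam12, Adam21, Adam23, Adam24, Adam25, Adam26a, Adam28 and Adam33, and the Adamts genes were Adamts1, Adamts4, Adamts5, Adamts8 and Adamtsl2. Timp3 and Timp4 were also below. The serpins below were Serpina1b, Serpina1c, Serpina1d, Serpina1e, Serpina1f, Serpina5, Serpina6, Serpinb9, Serpinb9c, Serpinb9e, Serpinc1, Serpind1, Serpinf1, Serpinf2 and Serpinh1. A second probe of Adam10 read 0.0739 to 0.301, below the probe used, which read 0.573 to 1.35. Readings near the floor say that a transcript was not distinguishable from background with that probe, and probe sensitivities differ, so readings are compared between arrays and not between genes.

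Among the 26 tested genes, 12 rose or fell with LPS or TSA, a count that was not made over all tested genes. All 5080 genes past the level filter were fitted together in limma, with 1 additive term per treatment. A gene is said to have risen or fallen where its two-sided p, adjusted over all 5080 by Benjamini-Hochberg, was under 0.05. With LPS, averaged over the pairs with and without TSA, 6 of 26 rose and 2 fell, where 12.3% of all tested genes rose and 7.11% fell. With TSA, averaged over 3 pairs, 5 rose and 4 fell, against 11.0% and 7.54% of all tested genes. With GW3965, averaged over 2 pairs, 0 of 26 rose and 0 fell, against 0.0591% and 0.0197%. Limma gave an unadjusted p under 0.05 to 1 of the 26 members and to 140 of all 5080 tested genes. The median effect of the 26 was 0.28 on the log2 scale for TSA and 0.28 for LPS, beside 0.01 and 0.03 over all genes. Of the 12, 5 were called for both treatments, 4 for TSA and not LPS, and 3 for LPS and not TSA. Neither this overlap nor the share called for either treatment was counted over all tested genes, so neither is read as a trait of these families. Quantile normalization moved the median LPS effect of all genes from 0.03 to -0.11, and the risen share of all genes called for LPS from 63.4% to 49.4%. With it 6 of 26 members rose and 3 fell with LPS, beside 10.7% and 11% of all tested genes. The added one was Serpinb6a, at -0.76 (adjusted p = 0.00713), which cyclic loess also added.

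**Figure D1:**
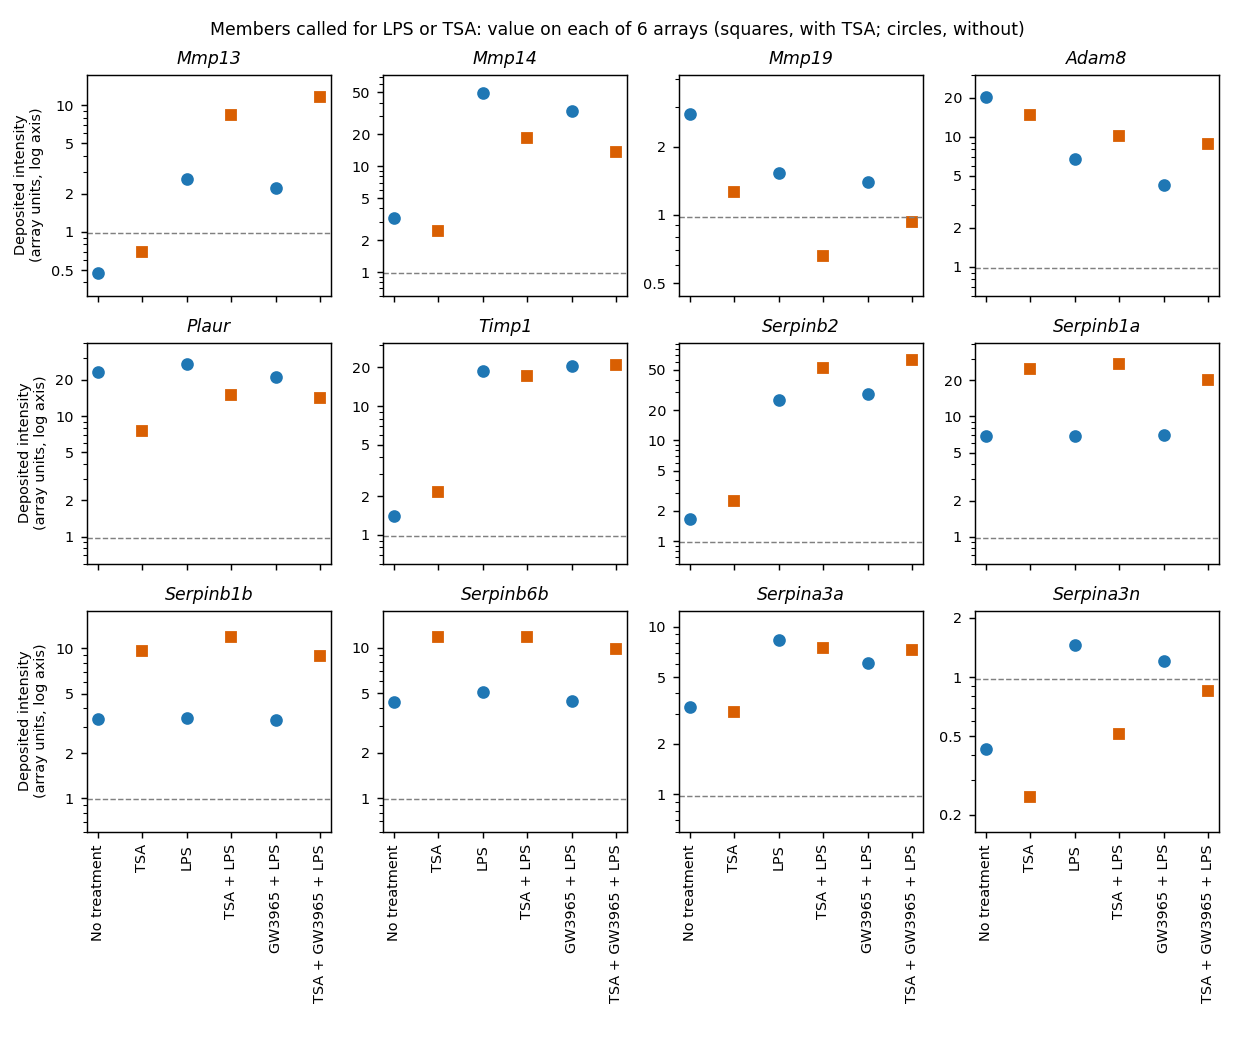
Deposited intensity (vertical log axis, array units) of the 12 members called for LPS or TSA on each of the 6 arrays (horizontal axis), 1 point an array, squares with TSA and circles without; the dashed line is the middle of the 6 array medians. Serpinb1a, Serpinb1b and Serpinb6b separate by TSA alone, Timp1 by LPS alone, and Mmp13 and Serpinb2 are highest where LPS and TSA were combined.

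The metalloproteinase genes that moved did so in different directions. Mmp13, a collagenase that cuts fibrillar collagen, read 0.472 with No treatment and 0.700 with TSA, both below the array median. It passed the level filter through the 4 arrays with LPS only, so some rise with LPS was bound to show. It read 2.64 with LPS and 2.21 with GW3965 + LPS, and 8.43 with TSA + LPS and 11.7 with TSA + GW3965 + LPS. The arrays with both LPS and TSA were thus the highest, the arrays with LPS and no TSA lay between, and the arrays without LPS were lowest. Mmp13 rose with LPS by 3.04 on the log2 scale (higher in 2 of 2 pairs, with SE 0.34 and adjusted p = 1.18e-06) and with TSA by 1.55 (higher in 3 of 3 pairs, with SE 0.28 and adjusted p = 0.00094). The TSA difference was 1.67 with LPS and 2.40 with GW3965 + LPS, and 0.57 without LPS. The difference between the TSA effects with and without LPS was 1.47 (SE 0.56) and did not pass in limma (adjusted p = 0.566). Here and for the genes below, the effect with LPS in this difference is the mean over the LPS and GW3965 + LPS pairs. With the floor raised to each array's median, which lifts both resting readings, limma no longer called the TSA rise (adjusted p = 0.0892). Bulk arrays cannot tell fewer cells carrying a transcript from less transcript per cell, here and in every value that follows.

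Mmp14, the membrane-anchored protease that activates pro-Mmp2 and cuts collagen at the cell front, rose with LPS and fell with TSA. It read 3.21 with No treatment and 2.44 with TSA. With LPS it read 49.0 and with TSA + LPS 18.6, and with GW3965 + LPS 33.6 and with TSA + GW3965 + LPS 13.5. Every LPS array exceeded both arrays without LPS, and the TSA array was the lower of each of the 3 pairs. The LPS effect was 3.43 (SE 0.28, adjusted p = 1.64e-08), and the TSA effect was -1.04 (lower in 3 of 3 pairs, with SE 0.23 and adjusted p = 0.00488). Mmp14 was 15.3-fold higher with LPS where TSA was absent and 7.60-fold higher where it was present. The TSA difference averaged over the LPS and GW3965 + LPS pairs, minus that without LPS, was -0.96 on the log2 scale and did not pass in limma (adjusted p = 0.952). Its transcript with LPS and TSA together thus stayed above the resting level while lying below the level with LPS.

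Mmp19, a basement membrane-cleaving enzyme of macrophages and other cells, fell with both treatments. It read 2.78 with No treatment, 1.27 with TSA, 1.54 with LPS and 0.661 with TSA + LPS. With GW3965 + LPS it read 1.40, and with TSA + GW3965 + LPS 0.927. The 3 readings with TSA were the lowest of the 6. The TSA effect was -0.98 (lower in 3 of 3 pairs, with SE 0.25 and adjusted p = 0.0101) and the LPS effect -0.90 (lower in 2 of 2 pairs, with SE 0.30 and adjusted p = 0.0423). Limma did not call the TSA effect without the No treatment and TSA pair (adjusted p = 0.0738), nor the LPS effect with every array floored at its median (adjusted p = 0.0987) or with no level filter (adjusted p = 0.0567).

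Mmp12, the elastase by which macrophages are best known, had bright readings that did not follow a treatment. It read 148 with No treatment and 78.2 with TSA, 153 with LPS and 129 with TSA + LPS, and 150 with GW3965 + LPS and 222 with TSA + GW3965 + LPS. The TSA differences were -0.92, -0.25 and 0.57 on the log2 scale, so they did not share a direction, and their mean of -0.20 did not pass (SE 0.23, adjusted p = 0.604).

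Timp1, a secreted inhibitor of most metalloproteinases, rose with LPS both without and with TSA. It read 1.41 with No treatment and 2.14 with TSA. The 4 arrays with LPS read 17.1 to 20.8, with no overlap with the arrays without it. The LPS effect was 3.36 (higher in 2 of 2 pairs, with SE 0.27 and adjusted p = 1.09e-08), while the TSA effect of 0.17 did not pass (SE 0.22, adjusted p = 0.658). Over the same arrays with LPS, Mmp14 spanned 13.5 to 49.0 and Mmp13 2.21 to 11.7. Timp2, which also takes part in pro-Mmp2 activation at the cell surface, read 113, 70.9 and 80.7 without TSA and 95.02, 144 and 83.6 with it, in the order no LPS, LPS and GW3965 + LPS, and passed for no treatment. The fibroblast and mesothelial markers, which mark cells known to make Timp1 and Mmp14, summed to 10.0 with No treatment and to 14.8 to 16.7 on the other 5 arrays; 2 or 3 of 9 stood at or above the median, and Lum and Msln were at the floor on all 6. Dcn and Pdgfra made up most of that sum. Their LPS effects in limma were 0.66 (SE 0.27, adjusted p = 0.095) and 0.25 (SE 0.29, adjusted p = 0.636). Dcn was higher with LPS in 2 of 2 pairs, and Pdgfra in 1 of 2. Krt19, a mesothelial keratin gene of the same list, fell with LPS by 1.23 (adjusted p = 0.023). It read 0.780 with No treatment, 1.16 with TSA and 0.380 to 0.518 on the 4 arrays with LPS, so only the TSA reading exceeded an array median. The part of such cells in the rises of Timp1 and Mmp14 was not tested.

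Among the 7 Adam and Adamts genes tested, limma called 1 for LPS and 0 for TSA, which for 7 genes is near the shares of all tested genes (12.3% risen and 7.11% fallen for LPS, 11.0% and 7.54% for TSA). Adam8, a sheddase of leukocytes, fell with LPS by 1.06 on the log2 scale (lower in 2 of 2 pairs, with SE 0.31 and adjusted p = 0.0192). It read 20.1 with No treatment and 14.7 with TSA, against 6.78 with LPS, 10.1 with TSA + LPS, 4.22 with GW3965 + LPS and 8.83 with TSA + GW3965 + LPS. All 4 readings with LPS lay below both without it. The TSA difference of Adam8 was -0.45 without LPS and 0.58 and 1.06 with it, and the difference between the effects with and without LPS was 1.27 (SE 0.47, adjusted p = 0.515). With every array floored at its median its LPS effect had an adjusted p of 0.103, with the effect at -1.06 as before.

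Adam17, the tumour necrosis factor converting enzyme, read 0.650 with No treatment and 1.72 with LPS, and 0.581 with TSA and 0.740 with TSA + LPS. It was thus 2.65-fold higher with LPS alone, and its mean LPS effect of 0.88 did not pass (SE 0.38, adjusted p = 0.121). With GW3965 + LPS it read 0.934 and with TSA + GW3965 + LPS 1.47, so TSA went with a lower reading in the LPS pair and a higher one in the GW3965 pair. Adam19, a sheddase of neuregulin, read 8.57, 7.55 and 8.39 without TSA and 9.90, 17.0 and 12.3 with it, in the order no LPS, LPS and GW3965 + LPS. Its TSA effect of 0.64 lay just short of the threshold (higher in 3 of 3 pairs, with SE 0.23 and adjusted p = 0.0532). The remaining members of the family passed for no treatment. Adam15 read 4.58 to 8.91, Adam10, the constitutive sheddase, 0.573 to 1.35, and Adamts10 0.486 to 1.14. Adam18, known as a sperm surface protein, read 4.73 to 7.30 on these macrophage arrays.

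Plaur, the urokinase receptor, fell with TSA in all 3 pairs. It read 23.2 with No treatment, 27.1 with LPS and 21.3 with GW3965 + LPS, and 7.49, 14.9 and 14.3 on the matching arrays with TSA, so the readings with and without TSA did not overlap. The TSA effect was -1.02 (SE 0.23, adjusted p = 0.0049). It was largest without LPS, at 3.09-fold, and 1.82-fold with LPS and 1.49-fold with GW3965 + LPS. Without the pair that had no LPS, limma put it at -0.72 (adjusted p = 0.0515). The difference between the TSA effects with and without LPS was 0.91 (adjusted p = 0.972). The LPS effect of Plaur, 0.61, did not pass (SE 0.28, adjusted p = 0.145).

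Serpinb2, known as plasminogen activator inhibitor type 2 and a serpin that stays largely inside the cell, had the largest LPS effect of the members tested and rose further with TSA. It read 1.67 with No treatment and 2.51 with TSA. It read 25.03 with LPS and 29.1 with GW3965 + LPS, and 51.7 with TSA + LPS and 62.2 with TSA + GW3965 + LPS. The 3 levels did not overlap: low without LPS, higher with LPS, and highest with LPS and TSA. The LPS effect was 4.13 (higher in 2 of 2 pairs, with SE 0.26 and adjusted p = 3.3e-10) and the TSA effect 0.91 (higher in 3 of 3 pairs, with SE 0.21 and adjusted p = 0.00659). Without the GW3965 + LPS pair limma did not call the TSA effect (0.82, adjusted p = 0.0798). In the pair TSA + LPS against LPS, the inhibitor gene Serpinb2 was 2.07-fold higher and the receptor gene Plaur 1.82-fold lower.

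The LPS-induced or TSA-lowered genes Mmp13, Serpinb2, Mmp14 and Plaur are shown with the 250 bases before their RefSeq gene start (GRCm38.p6), because the first pair rose with both treatments and the second pair fell with TSA. Of 75 member genes, 50 had a window, and some had several. Capitals mark the AP-1 motif TGANTCA, the GC box GGGCGG and the TATA motif TATAAA, searched on both strands, as was the NF-kB motif, which none of these windows held.
Mmp13 (chr9:7272264-7272513, plus strand): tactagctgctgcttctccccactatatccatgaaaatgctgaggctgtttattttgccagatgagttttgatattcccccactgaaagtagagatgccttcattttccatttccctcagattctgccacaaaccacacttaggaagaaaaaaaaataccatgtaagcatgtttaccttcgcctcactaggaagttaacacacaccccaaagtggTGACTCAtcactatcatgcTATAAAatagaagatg
Serpinb2 (chr1:107511173-107511422, plus strand): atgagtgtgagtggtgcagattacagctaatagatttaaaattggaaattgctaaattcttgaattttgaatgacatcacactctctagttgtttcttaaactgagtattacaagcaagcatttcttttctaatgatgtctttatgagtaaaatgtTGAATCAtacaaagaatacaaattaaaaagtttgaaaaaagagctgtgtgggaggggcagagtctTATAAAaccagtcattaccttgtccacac
Mmp14 (chr14:54431348-54431597, plus strand): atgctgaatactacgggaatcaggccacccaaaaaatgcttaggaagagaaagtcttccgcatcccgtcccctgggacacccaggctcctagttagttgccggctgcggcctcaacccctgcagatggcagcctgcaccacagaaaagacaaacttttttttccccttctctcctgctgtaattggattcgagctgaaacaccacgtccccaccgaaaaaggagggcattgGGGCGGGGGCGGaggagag
Plaur (chr7:24462233-24462482, plus strand): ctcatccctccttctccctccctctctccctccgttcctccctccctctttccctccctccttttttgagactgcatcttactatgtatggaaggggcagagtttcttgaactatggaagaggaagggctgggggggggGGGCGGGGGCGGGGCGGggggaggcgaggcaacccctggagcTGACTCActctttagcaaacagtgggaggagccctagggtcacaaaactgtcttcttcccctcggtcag
The Mmp13 and Serpinb2 windows each held an AP-1 motif and a TATA motif, first base 35 and 16 before the start in Mmp13 and 94 and 29 in Serpinb2. Both motifs occurred together in 1.21% of all 32851 windows and in 7 of 58 member windows, or 12.1%, which besides Mmp13 and both windows of Serpinb2 were those of Mmp1a, Mmp3, Mmp7 and Mmp10, genes below the level filter. The Mmp14 window held 2 GC boxes and neither of the other motifs. The Plaur window held an AP-1 motif, first base 69 before the start, and 3 GC boxes, of which 2 overlap. Over the 58 windows of member genes, 15 held an AP-1 motif, or 25.9%, against 6.75% of all windows. A GC box was in 29.3% against 32.7%, a TATA motif in 20.7% against 12.4%, and an NF-kB motif in 3.45% against 3.9%. The AP-1 windows included those of Mmp1a, Mmp3, Mmp7, Mmp10 and Mmp12, neighbours of Mmp13 on chromosome 9. Of these only Mmp12 and Mmp13 reached the level filter, so windows with an AP-1 motif belonged to genes below the level filter as well as to genes that rose. The windows of paralogs and of alternative starts share sequence and are not independent. A match describes letters; binding was not measured.

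**Figure D2:**
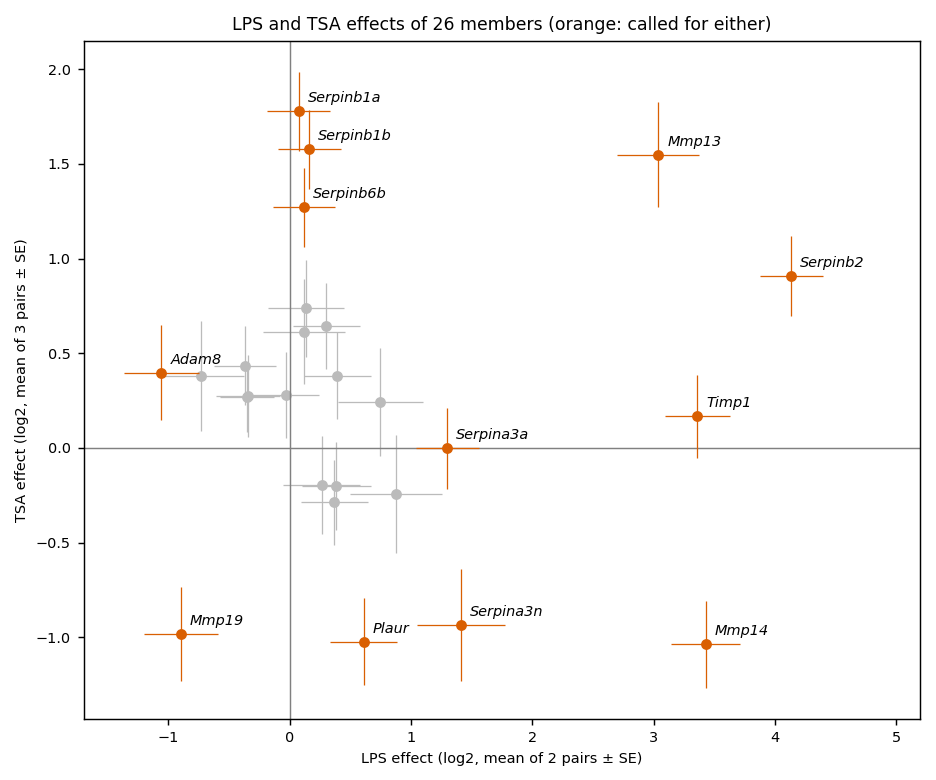
LPS effect (horizontal axis, log2, mean of 2 pairs) against TSA effect (vertical axis, log2, mean of 3 pairs) of the 26 tested members, 1 point a gene with its SE from limma; orange points were called for either treatment. Mmp13 and Serpinb2 are high on both axes, Mmp14 is high for LPS and at -1.04 for TSA, and the 3 chromosome 13 serpins lie near 0 for LPS and at 1.27 to 1.78 for TSA.

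The clade B serpins Serpinb1a, Serpinb1b and Serpinb6b rose with TSA and did not pass for LPS. Serpinb1a, an inhibitor of neutrophil elastase, cathepsin G and proteinase 3, read 6.91 with No treatment, 6.88 with LPS and 6.97 with GW3965 + LPS. The matching arrays with TSA read 24.5, 27.3 and 19.98. The 3 readings without TSA thus lay between 6.88 and 6.97, and those with TSA lay well above. The TSA effect was 1.78 (higher in 3 of 3 pairs, with SE 0.21 and adjusted p = 1.93e-05), and the LPS effect was 0.07 (SE 0.26).

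Serpinb1b, its close paralog, was also higher with TSA in every pair. It read 3.39, 3.44 and 3.35 without TSA and 9.68, 11.9 and 8.94 with it. The TSA effect was 1.58 (SE 0.21, adjusted p = 6.88e-05). Serpinb6b, another clade B serpin of the same chromosome, read 4.34, 5.06 and 4.41 without TSA and 11.7, 11.8 and 9.84 with it, in the same order of pairs. Its TSA effect was 1.27 (SE 0.21, adjusted p = 0.000457). For each of the 3 genes the readings with and without TSA did not overlap. Limma called the rise under all 12 alternative settings, which reuse the same arrays. Near-identical paralogs can share signal on a probe, so the Serpinb1a and Serpinb1b readings may not be separate measurements; probe sequences were not used here.

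These genes sit in 1 run of 16 protein-coding clade B serpin genes on chromosome 13, from Serpinb1a to Serpinb6a in the GRCm38.p6 gene table. The array had 7 of the 16, and 4 were tested. In chromosomal order Serpinb1a, Serpinb6b and Serpinb1b rose. Serpinb6a, at the far end, read 133 to 218, and its TSA effect of 0.27 did not pass (SE 0.18, adjusted p = 0.343). Serpinb9, Serpinb9c and Serpinb9e, which lie among them, were below the level filter, and Serpinb9 read 0.201 to 0.754. Just outside, Wrnip1 had a TSA effect of 0.25 (adjusted p = 0.445) on the Serpinb1a side, and Nqo2, a quinone reductase gene, rose by 0.76 (SE 0.22, adjusted p = 0.0222) on the Serpinb6a side. The change was thus not the same along the run. RefSeq windows before the start of Serpinb1b and Serpinb6b, read as above and shown because both genes were higher with TSA in every pair, were as follows.
Serpinb1b (chr13:33083853-33084102, plus strand): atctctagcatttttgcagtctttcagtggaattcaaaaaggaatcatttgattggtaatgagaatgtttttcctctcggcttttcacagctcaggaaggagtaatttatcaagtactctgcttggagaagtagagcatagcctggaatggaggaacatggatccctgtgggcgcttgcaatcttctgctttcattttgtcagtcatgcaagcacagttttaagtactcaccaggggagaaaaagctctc
Serpinb6b (chr13:32965011-32965260, plus strand): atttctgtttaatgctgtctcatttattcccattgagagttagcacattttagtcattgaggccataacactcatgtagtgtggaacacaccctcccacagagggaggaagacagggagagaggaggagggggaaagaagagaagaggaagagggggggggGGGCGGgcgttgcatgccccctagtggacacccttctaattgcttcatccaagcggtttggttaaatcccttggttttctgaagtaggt
The Serpinb1b window held none of the 4 motifs, and the Serpinb6b window held 1 GC box. They held 2 and 3 CpG dinucleotides, where the median of all windows was 6.

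**Figure D3:**
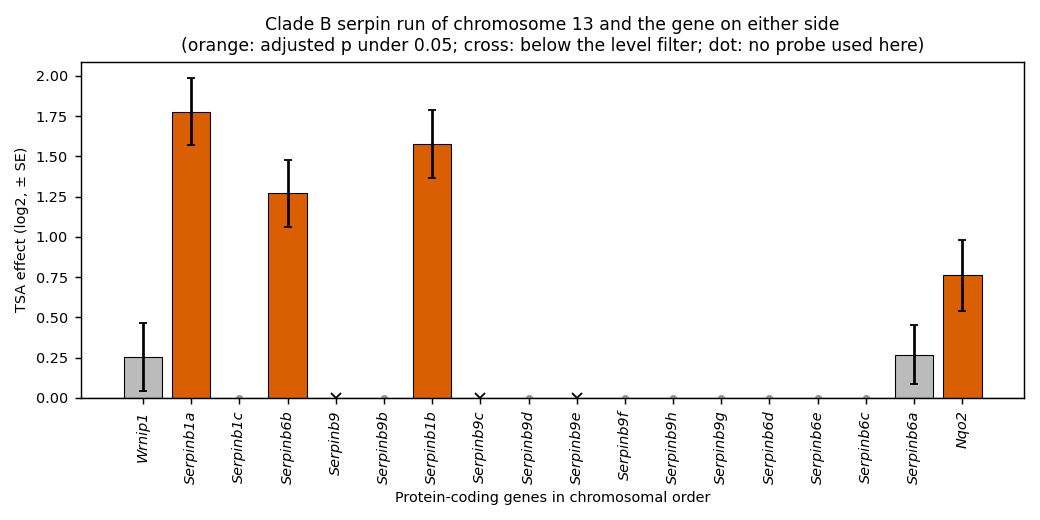
TSA effect (vertical axis, log2, mean of 3 pairs, bars with SE from limma) of the clade B serpin genes of chromosome 13 in chromosomal order (horizontal axis, not to scale), with the nearest protein-coding gene on either side. Serpinb1a, Serpinb6b, Serpinb1b and the flanking Nqo2 passed, and Serpinb6a at 0.27 and Wrnip1 at 0.25 did not; crosses mark genes below the level filter and dots genes with no probe used here.

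The neutrophil markers did not move together on the arrays where these serpins rose. The 10 neutrophil markers summed to 31.1 with No treatment, 56.0 with LPS and 57.8 with GW3965 + LPS, and to 43.8, 89.8 and 79.9 on the matching arrays with TSA. S100a8, which makes up most of that sum, rose with TSA by 0.60 (SE 0.20, adjusted p = 0.04) and with LPS by 1.20. Prtn3, which encodes the proteinase 3 that Serpinb1a inhibits, was at the floor on the 3 arrays without TSA and read 4.24, 1.31 and 1.18 with it. Csf3r, the receptor of granulocyte colony-stimulating factor, fell with TSA by 1.08 (adjusted p = 0.0277), and Mpo was at the floor throughout. Limma did not call Camp (-0.67), Ltf (0.006) or Ctsg (0.27) for TSA. With LPS, Camp rose by 2.91 (adjusted p = 4.17e-06) and Ltf fell by 1.34 (adjusted p = 0.0179). Between No treatment and LPS, S100a8 alone went from 22.0 to 47.2, so the sum mostly follows that gene and is not a measure of neutrophil content. The part of neutrophils in the TSA rises was not tested.

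The other tested clade B serpins passed for no treatment. Serpinb8, an inhibitor of furin-like proteases, read 2.39 with No treatment, 1.66 with TSA and 0.748 to 1.83 with LPS. Its TSA differences were -0.53, 0.38 and 1.29. Serpinb3a read 2.87 to 5.92.

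The clade A serpins that passed were both raised by LPS. Serpina3n, an acute phase inhibitor of granzyme B and other proteases, read 0.429 with No treatment and 0.246 with TSA, then 1.45 with LPS and 0.515 with TSA + LPS. It read 1.21 with GW3965 + LPS and 0.853 with TSA + GW3965 + LPS. The TSA array was the lower in each of the 3 pairs, and only the readings with LPS and no TSA exceeded the array medians. Serpina3n passed the level filter through those readings alone, so some rise with LPS and fall with TSA were bound to show. It is counted among the 6 members that rose with LPS and the 4 that fell with TSA. It rose with LPS by 1.41 (SE 0.36, adjusted p = 0.00797) and fell with TSA by 0.94 (SE 0.30, adjusted p = 0.0342). With every array floored at its median limma called neither effect (adjusted p = 0.341 for LPS and 0.208 for TSA), and without the pair of LPS and TSA + LPS the TSA effect was -0.66 (adjusted p = 0.215).

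Serpina3a, of the same expanded mouse gene group, read 3.32 with No treatment and 3.08 with TSA, against 8.32 with LPS, 7.44 with TSA + LPS, 6.06 with GW3965 + LPS and 7.27 with TSA + GW3965 + LPS. All 4 readings with LPS exceeded both without it. The LPS effect was 1.30 (SE 0.26, adjusted p = 0.001), and the TSA effect, below 0.01 in size, did not pass. Paralogs of this group are close in sequence, so the reading may hold signal from other members. Serpina12, an adipose tissue serpin, read 1.97 to 3.26. Serping1, the C1 inhibitor of complement, read 1.39 to 2.70, and Serpini2 read 0.846, 0.786 and 1.29 without TSA and 1.41, 1.83 and 1.54 with it. The Serpini2 TSA effect was 0.74 (SE 0.26, adjusted p = 0.0525), just outside the threshold, and limma called it under 5 of 12 alternative settings.

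**Figure D4:**
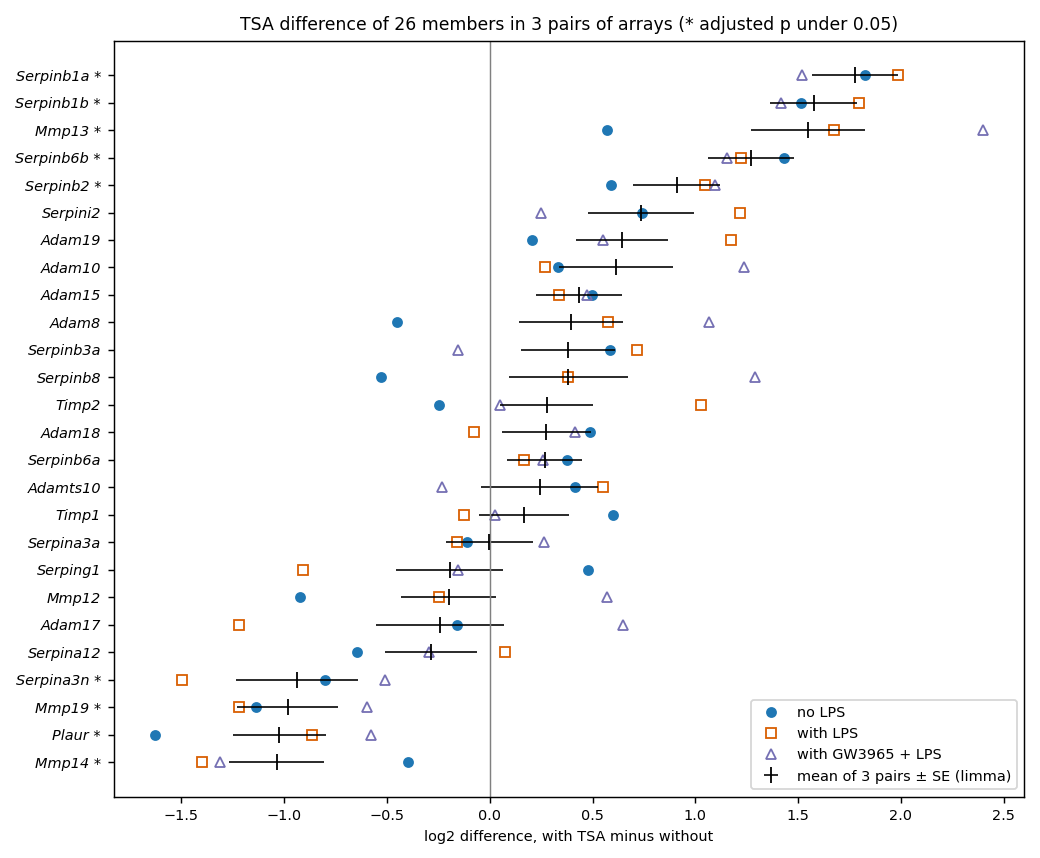
TSA difference (horizontal axis, log2, with TSA minus without) of the 26 tested members (vertical axis, ordered by mean) in each of 3 pairs of arrays, with the limma mean and SE in black; asterisks mark adjusted p under 0.05. Serpinb1a, Serpinb1b and Serpinb6b have pair differences of 1.16 to 1.99, Mmp13 spreads from 0.57 to 2.40, and Mmp12, Adam17 and Serpinb8 lie on both sides of 0.

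Counted pair by pair with no test, among members whose brighter array reached its median, more members stood at least 2-fold higher than lower with TSA in each of the 3 pairs. All measured genes leaned the same way in the pairs without LPS and with GW3965 + LPS, and the other way in the pair with LPS. Without LPS 3 of 22 were higher with TSA and 2 lower, beside 6.98% and 4.69% of all genes measured in that pair. With LPS 8 of 26 were higher and 4 lower, beside 7.57% and 9.55%. With GW3965 + LPS 8 of 25 were higher and 1 lower, beside 4.83% and 1.13%. Serpinb1a, Serpinb1b and Serpinb6b were among the higher ones in every pair, and Mmp13 and Serpinb2 in both pairs with LPS. For LPS, 7 of 23 were higher and 2 lower without TSA, beside 14.0% and 6.05%, and 5 of 24 were higher and 0 lower with TSA, beside 9.20% and 6.37%. The 5 were Mmp13, Mmp14, Serpina3a, Serpinb2 and Timp1. For GW3965, 0 of 24 were 2-fold apart in either pair; 0.476% of all genes were higher and 1.25% lower without TSA, and 1.75% and 0.577% with TSA. The pairs share arrays, so their counts are not independent.

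The effect of TSA was tested for dependence on LPS and on GW3965, by adding each interaction to the model in turn. The LPS term set the mean TSA difference of the pairs with LPS, with and without GW3965, against that of the pair without LPS. The GW3965 term set the TSA difference of the GW3965 + LPS pair against the mean of the pairs without GW3965. One of those has no LPS, so that term also holds any dependence on LPS. Limma called 0 of 26 members for the dependence on LPS, where it called 0.236% of all genes, and 6 members had an unadjusted p under 0.05. It called 0 of 26 for the dependence on GW3965, against 0.0591% of all genes, and 4 members had an unadjusted p under 0.05. The share of all genes under that unadjusted cut was not counted for either term, so the 6 and the 4 are not read as signs of dependence. With 1 residual degree of freedom these tests drew their error almost wholly from the spread shared over genes. Their SEs were 0.449 to 0.678 and they had little power, so the unequal pair differences of Mmp12, Mmp13, Adam8 and Serpinb8 are given as values.

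Of 93 other genes of extracellular proteolysis listed beside these families, 65 were on the array and 30 were tested. With LPS 10 of the 30 rose and 0 fell, beside 12.3% and 7.11% of all tested genes. With TSA 2 rose and 5 fell, beside 11.0% and 7.54%. The median LPS effect was 0.24 and the median TSA effect -0.03. Vcan, the matrix proteoglycan versican that Adamts proteases cut, rose with LPS by 4.24. Slpi, a secreted inhibitor of leukocyte elastase, rose with LPS by 1.89 (SE 0.25, adjusted p = 1.21e-05), and F10, coagulation factor X, rose by 2.71 (SE 0.22, adjusted p = 1.51e-08). Stfa3, a stefin that inhibits cysteine cathepsins, rose with LPS by 2.34 and with TSA by 1.32 (adjusted p = 0.000517), and Htra1, a secreted serine protease, rose with TSA by 1.56 (SE 0.22, adjusted p = 0.000103). On the falling side with TSA were F7, coagulation factor VII, by 1.24 (adjusted p = 0.00122), Cst7, an inhibitor of cysteine proteases, by 0.90 (adjusted p = 0.015), and Hbegf, a growth factor that sheddases release, by 0.98 (adjusted p = 0.0285). Hbegf was lower with TSA in 2 of 3 pairs, reading 0.574 with No treatment and 0.649 with TSA, and it rose with LPS by 2.19 (adjusted p = 0.000142). The sheddase substrate Tnf also fell with TSA, by 1.24 (adjusted p = 0.00114), and rose with LPS by 6.87. Of the 6 protease inhibitors of this list that were tested, Slpi, Stfa3 and Cst7 rose with LPS and 0 fell, beside the same 12.3% and 7.11%. With GW3965 limma called 0 of the 30.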

How the data were processed

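The authors deposited 1 value table of 10076 probes on 6 arrays, as linear intensity, and array medians of 0.981 to 0.987 show that it was already scaled between arrays. The scaling, scanner software and background steps are not given in the sources used here; 19 to 28 values per array were at or below 0. Per the labels' protocols, total RNA was amplified from an oligo-dT primer into biotin-labelled cRNA.

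Members, gene lists and tests were chosen with earlier results of these data known. Probes were named by the platform's annotation, and all 75 member genes were found under the same symbol in the RefSeq gene table. A gene was read from its probe with the highest mean. Values were floored at each array's 25th percentile (0.198 to 0.245) and log2-transformed. Of 8841 genes, 5080 at or above an array median on at least 1 array entered limma 3.58.1 (R 4.3.3) with an intensity trend. The additive model had 2 residual and 16.9 prior degrees of freedom. The pipeline was run on 20 simulated sets with changes in the TSA term only. Their noise was drawn from the fitted additive model, so they cannot show whether that model holds for these 6 arrays. Members called by limma or at least 4-fold apart in a pair are named with all values, other tested members by range, and members below the filter by name; of the other proteolysis genes, at most 6 called per treatment are named, the largest first, plus Cst7 for LPS. The full values of Mmp12, Timp2, Adam17, Adam19 and Serpini2 were added after their values were seen. Motifs and the chromosome 13 neighbours were chosen after the values were seen. Promoter windows are from RefSeq. Alternatives varied scaling, floor, level filter, probe averaging, prior variance, and the pairs used. With 6 arrays, their number sets the precision.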

Additional observations from a re-analysis of the deposited data

How the results depend on the processing

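Of 202 tested alternatives of single member effects, 185 kept their direction and side of the 0.05 threshold, 10 lost the call, 7 gained it, and 0 changed sign. Alternatives of the level filter, probe averaging and prior variance left these effects at the same size, so their direction could not change there. All alternatives reuse the same 6 arrays, so the tally describes the processing and is not replication. A further 16 single-pair values of LPS effects, which have no test, kept their direction. No paired analysis was possible because each group has 1 array and the labels number no replicates; the pairs above match arrays by treatment, not by culture or animal. The number of members that fell with LPS was 0 in place of 2 when each array was floored at its median, where 4.04% of all tested genes fell. With no level filter 10 of 75 members rose with LPS in place of 6 of 26, beside 8.62% of all 8841 genes. The added genes were Adam1a, Mmp3, Serpina1d and Serpinb9, all below every array's median. Without the pair of No treatment and TSA, limma called 2 members as fallen with TSA in place of 4, with Mmp19 and Plaur lost. At a 1.5-fold threshold 10 of 22 members were apart for TSA without LPS, beside 33% of all genes measured in that pair. For LPS with TSA 13 of 24 were apart, beside 35.8%. For GW3965 without TSA 3 of 24 were apart, beside 10%, and with TSA 6 of 24, beside 16.8%. The 2-fold counts were 5, 5, 0 and 0. Quantile normalization made the last count 1, beside 2.03%. Low readings limit what can be said of the 49 genes below the level filter, and folds over readings near the floor depend on the floor.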

Other observations

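Below the level filter, a few members had readings that moved with LPS or TSA and were chosen here after their values were seen. Mmp3, a stromelysin of the Mmp13 run on chromosome 9, read 0.0925 with No treatment and 0.114 with TSA, both under the floor, 0.939 with LPS and 0.307 with TSA + LPS, and 0.540 and 0.323 on the matching arrays with GW3965. With no level filter limma put its LPS effect at 1.24 on the log2 scale (adjusted p = 0.000243) and its TSA effect at -0.78 (adjusted p = 0.00962). Serpina1d, an alpha-1 antitrypsin gene with near-identical paralogs, read 0.114 and 0.224 without LPS and 0.495 to 0.595 with it. Mmp11, another stromelysin, read 0.697 with TSA and 0.0382 to 0.272 on the other 5 arrays. Serpinb9, a granzyme B inhibitor, read 0.471 with No treatment, 0.201 with TSA and 0.593 to 0.754 on the 4 arrays with LPS.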
